A study of Mus musculus with 4 samples.

Results

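Hepatic stellate cell and TGF-beta genes were followed in the livers of mice fed an atherogenic diet. The set holds 10 genes: the filament and contractile protein genes Vim, Des, Acta2 and Tagln, the retinoid enzyme gene Lrat, the ligand genes Tgfb1, Tgfb2 and Tgfb3, and the receptor genes Tgfbr1 and Tgfbr2. Members were taken by symbol: each probe that the platform annotation assigns to 1 of these symbols alone was used, and probes of a gene were averaged. All 10 genes had a probe, 15 probes in all, among 13705 named genes with a value on every array. The 4 conditions were an atherogenic diet with high fat for 24 weeks, the same for 6 weeks, an atherogenic diet without that fat (the plain diet below) for 24 weeks, and the plain diet for 6 weeks. Each condition had 1 two-colour oligonucleotide array, on which its liver RNA carried Cy5 and the liver RNA of mice on standard chow carried Cy3. All animals were male C57Bl/6J mice, an inbred strain, in the diet and in the chow groups. The chow lasted 24 or 6 weeks to match, except that no duration is given for the chow on the plain 6-week array. The labels do not state diet composition, age, or how many mice an RNA came from.

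Stellate cells lie between the hepatocytes and the sinusoidal endothelium and store vitamin A as retinyl esters, which the enzyme encoded by Lrat makes. In injured liver they lose these stores and turn into myofibroblasts, contractile cells that carry smooth muscle actin, the product of Acta2, and lay down collagen. TGF-beta is a main driver of this change. It is secreted in a latent complex, is released in the matrix, and binds the receptor encoded by Tgfbr2, which recruits and phosphorylates the one encoded by Tgfbr1, which in turn phosphorylates Smad2 and Smad3. Vim and Des encode intermediate filament proteins, and Tagln an actin-binding protein of smooth muscle; vimentin is also present in leukocytes and endothelium, and desmin, smooth muscle actin and transgelin in vessel walls.

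Values are log2 ratios of diet over chow on each array, so 0 means the level of the chow liver and 1 a doubling. That a positive value means more signal in the diet liver rests on how the labels assign the dyes, since the table itself does not say. No level in either liver can be read from a ratio, and whole-liver RNA cannot tell fewer cells of a type from less RNA per cell. The log base of the deposited values is not stated and was read as 10 from their spread; read as natural logarithms, every log2 value here would be smaller by the same factor (Vim 0.61 in place of 1.41) and every p-value the same. The SD over all probes was 0.39 and 0.37 on the high-fat arrays (24 and 6 weeks) and 0.46 and 0.53 on the plain ones (24 and 6 weeks), so the plain arrays spread more widely. No array was dye-swapped, so a probe's preference for a dye and an effect of diet cannot be told apart. The number of arrays limits the precision, and a p-value measures the spread between conditions, not between animals.

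The first comparison asked which of these genes differed from chow across both diets and durations. Vim and Lrat rose. Vim averaged 1.41 ± 0.14 over the 4 arrays (limma SE; adjusted p = 0.00352), a 2.66-fold ratio, and Lrat 0.48 ± 0.10 (adjusted p = 0.0284), a 1.39-fold ratio. The other 8 genes did not pass an adjusted p of 0.05, with means between -0.08 for Des and 0.69 for Tgfb2. With the differences by diet and duration taken out of the residual spread, which leaves 1 residual degree of freedom, Tagln, Tgfb1, Tgfb2 and Tgfbr2 passed too (adjusted p = 0.00774, 0.00169, 0.00283 and 0.00424). In that fit 6 of the 10 genes rose and 0 fell, while 2846 of all 13705 genes rose and 2373 fell. Without those differences taken out, 2 of 10 rose and 0 fell, where 6.25% of all genes rose and 5.72% fell. The median over the 10 genes was 0.38, against 0.0046 over all genes. Vim, Tagln, Lrat, Tgfb2 and Tgfbr2, 5 of the 10, lay above chow on all 4 arrays, as did 20.7% of all genes, and 0 of the 10 lay below it on all 4, as did 20.0%.

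**Figure D1:**
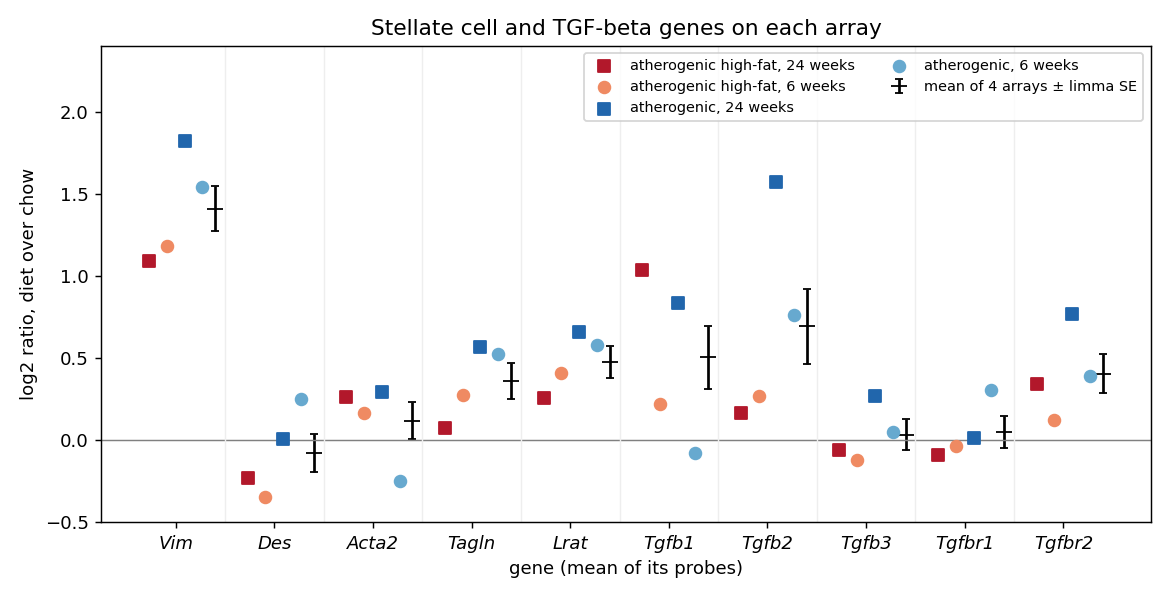
Log2 ratio of diet over chow (vertical axis) of each of the 10 genes on the 4 arrays; squares are 24 weeks and circles 6 weeks, red tones the high-fat diet and blue tones the plain diet, and the black bar is the mean of the 4 arrays with its limma SE. Vim sits between 1.09 and 1.82 on all arrays, Tgfb1 is higher on both 24-week arrays than on both 6-week arrays, and Tgfb2 is highest on the plain 24-week array, at 1.57.

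Vim, the gene of vimentin, stood at 1.09 and 1.18 on the high-fat arrays (24 and 6 weeks) and at 1.82 and 1.54 on those of the plain diet (24 and 6 weeks). It was far above chow on each, higher than 99.0% of all genes or more on every array, and the plain arrays lay above the high-fat ones. Both of its probes lay on the same side: AGmmB061306 averaged 1.75 and AGmmB251015 averaged 1.07, and both passed when single probes were tested (adjusted p = 0.00258 and 0.00363), as did 6.18% of all named probes in that direction. Vim kept its call when each array was left out in turn, with means from 1.27 to 1.52. It was the only member at least 2-fold above chow on every array. On the high-fat 24-week array 2 members passed that fold (Vim and Tgfb1; 0.963% of all genes), on the high-fat 6-week array Vim alone (0.671%), on the plain 24-week array Vim and Tgfb2 (2.14%), and on the plain 6-week array Vim alone (4.31%).

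The genes whose 4 ratios lay closest to those of Vim, by root mean square difference over the 4 arrays among 13245 other named genes, were Cd53 (0.12), Clec4b1 (0.16) and Blnk (0.17). Over the 4 arrays Cd53, a leukocyte tetraspanin, averaged 1.33 and Blnk, an adaptor of B cells and macrophages, averaged 1.38. Macrophage markers were also higher: of 14 measured, 7 rose and 1 fell, where 6.25% of all genes rose and 5.72% fell. The list medians were 0.31 and 0.55 on the high-fat arrays (24 and 6 weeks). They were 0.72 and 0.93 on those of the plain diet (24 and 6 weeks). Of 10 lymphocyte markers 1 rose and 0 fell, with a list median of 0.011 over the 4-array means. The part of leukocytes in the ratio of Vim was not tested.

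Des, the gene of desmin, an intermediate filament protein of muscle and of stellate cells in rodents, stood at -0.23 and -0.34 on the high-fat arrays (24 and 6 weeks) and at 0.0050 and 0.25 on those of the plain diet (24 and 6 weeks). Its values straddled chow, below it with high fat and at or above it without. The mean was -0.08 ± 0.12 and did not pass (adjusted p = 0.672). Its probes lay on opposite sides of 0 on both plain arrays: at 6 weeks AGmmA250923 read 0.53 and AGmmB250415 read -0.03, and at 24 weeks they read -0.15 and 0.16.

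Acta2, whose product is the usual marker of myofibroblasts, stood at 0.26 and 0.16 on the high-fat arrays (24 and 6 weeks) and at 0.30 and -0.25 on those of the plain diet (24 and 6 weeks). Only the plain 6-week array was below chow. The mean was 0.12 ± 0.11 (adjusted p = 0.514), and a single probe carried it. Acta2 averaged 0.070 without the high-fat 24-week array, 0.059 without the plain 24-week array and 0.24 without the plain 6-week array. Acta2 belongs to a family of actins with near-identical coding sequences, so a probe may also bind the others. Tagln, the transgelin gene, stood at 0.08 and 0.28 on the high-fat arrays (24 and 6 weeks) and at 0.57 and 0.52 on those of the plain diet (24 and 6 weeks). Every array was above chow and the plain arrays lay above the high-fat ones. Its mean of 0.36 ± 0.11 did not pass (adjusted p = 0.0786).

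Lrat, the gene of lecithin retinol acyltransferase, which esterifies retinol for storage, stood at 0.26 and 0.41 on the high-fat arrays (24 and 6 weeks) and at 0.66 and 0.58 on those of the plain diet (24 and 6 weeks). All 4 values lay above chow. The call rested on all arrays but the high-fat 24-week one: without the high-fat 6-week, the plain 24-week or the plain 6-week array Lrat stood at 0.50, 0.42 and 0.44 and did not pass (adjusted p = 0.0748, 0.122 and 0.0653). In place of 2 members, 1 then passed in those fits, and the 1 was Vim.

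Tgfb1, the ligand made by many liver cells including macrophages, stood at 1.04 and 0.22 on the high-fat arrays (24 and 6 weeks) and at 0.84 and -0.08 on those of the plain diet (24 and 6 weeks). Both 24-week arrays were high and both 6-week arrays near chow, whichever diet was fed. Its mean over the 4 arrays was 0.50 ± 0.19 (adjusted p = 0.132), and was 0.33 without the high-fat 24-week array. Tgfb2 stood at 0.17 and 0.27 on the high-fat arrays (24 and 6 weeks) and at 1.57 and 0.76 on those of the plain diet (24 and 6 weeks). Both plain arrays were high and both high-fat arrays low. Its mean of 0.69 ± 0.23 did not pass (adjusted p = 0.0994), and was 0.40 without the plain 24-week array. Tgfb3 stayed between -0.12 and 0.27 on the 4 arrays, with a mean of 0.03 ± 0.09 (adjusted p = 0.839).

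The promoter windows of Tgfb1 and Tgfb2 are shown because Tgfb1 was high on both 24-week arrays and Tgfb2 on both plain arrays, and that of Vim because it rose on every array. Each is the RefSeq window of GRCm38.p6 from 250 bases before to 50 after the annotated start, 5′ to 3′ on the gene's strand; such windows were found for 8 of the 10 genes (9 windows, Tgfbr1 having more than 1), all but Tagln and Tgfb3. Capitals mark any match, on either strand, to 1 of 4 motifs. One is the GC box, spelled GGGCGG. Another is the TATA box, spelled TATAAA. The AP-1 site was searched as TGANTCA. The last is the CArG box bound by serum response factor, searched as CCWWWWWWGG with W for A or T. Tgfb1 lies at chr7:25686752-25687051, plus strand, Tgfb2 at chr1:186705940-186706239, minus strand, and Vim at chr2:13574061-13574360, plus strand.
Tgfb1: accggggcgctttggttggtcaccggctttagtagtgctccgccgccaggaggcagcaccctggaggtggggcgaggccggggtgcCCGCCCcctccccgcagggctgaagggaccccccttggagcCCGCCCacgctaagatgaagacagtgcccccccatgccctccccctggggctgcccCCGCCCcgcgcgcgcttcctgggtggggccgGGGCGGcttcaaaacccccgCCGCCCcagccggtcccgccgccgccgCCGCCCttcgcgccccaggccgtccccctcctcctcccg
Tgfb2: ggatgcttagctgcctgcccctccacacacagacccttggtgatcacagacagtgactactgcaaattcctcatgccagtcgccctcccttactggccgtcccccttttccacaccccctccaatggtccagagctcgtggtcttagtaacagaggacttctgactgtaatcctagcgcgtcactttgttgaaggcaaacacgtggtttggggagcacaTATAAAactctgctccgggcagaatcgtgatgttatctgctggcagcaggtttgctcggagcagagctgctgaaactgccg
Vim: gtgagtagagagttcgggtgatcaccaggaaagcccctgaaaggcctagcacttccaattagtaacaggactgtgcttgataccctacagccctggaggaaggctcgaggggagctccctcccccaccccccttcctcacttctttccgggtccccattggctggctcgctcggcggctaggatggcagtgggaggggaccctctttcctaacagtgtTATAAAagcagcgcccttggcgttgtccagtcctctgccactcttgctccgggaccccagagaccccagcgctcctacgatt

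The Tgfb1 window held 6 GC boxes and no TATAAA. Those of Tgfb2 and Vim held no GC box and 1 TATAAA each, starting 31 and 32 bases before the start. Of all 32851 windows, 35.7% held a GC box, 13.6% TATAAA, 7.81% the AP-1 letters and 1.63% the CArG letters. No match to the AP-1 letters or to the CArG letters lay in any window of the 8 genes, and no matches overlapped each other. The absence says only that these exact letters are not in these windows. Looser forms of the CArG box, which can differ from these letters by a base, were not searched. The matches describe the sequence, and their relation to the ratios was not tested.

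Tgfbr1, the type I receptor, stood at -0.09 and -0.03 on the high-fat arrays (24 and 6 weeks). On the plain arrays it stood at 0.012 and 0.31 (24 and 6 weeks), and its mean was 0.05 ± 0.10 (adjusted p = 0.765). Its probes AGmmA081623 and AGmmB161322 read 0.09 and -0.07 on the plain 24-week array. On the plain 6-week array they read 0.10 and 0.51. Tgfbr2, the type II receptor that binds the ligand, stood at 0.34 and 0.13 on the high-fat arrays (24 and 6 weeks) and at 0.77 and 0.39 on those of the plain diet (24 and 6 weeks). Every value was above chow, and the plain 24-week array was highest. The mean of 0.41 ± 0.12 did not pass (adjusted p = 0.0720).

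The 3 probes of Tgfbr2 disagreed. AGmmA200610 stood at 1.20 and 0.49 on the high-fat arrays (24 and 6 weeks) and at 1.80 and 0.77 on those of the plain diet (24 and 6 weeks), with both 24-week arrays above both 6-week arrays. It averaged 1.065 ± 0.21 and passed when tested alone (adjusted p = 0.0238), while AGmmB201219 averaged 0.24 ± 0.10 and AGmmA211401 averaged -0.08 ± 0.12. With the median of the probes in place of their mean Tgfbr2 stood at 0.25. The ratio of the gene therefore depends on which probe is read. Over the 2759 genes with more than 1 probe, probes of a gene differed with a pooled SD between 0.33 and 0.46 on an array.

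**Figure D2:**
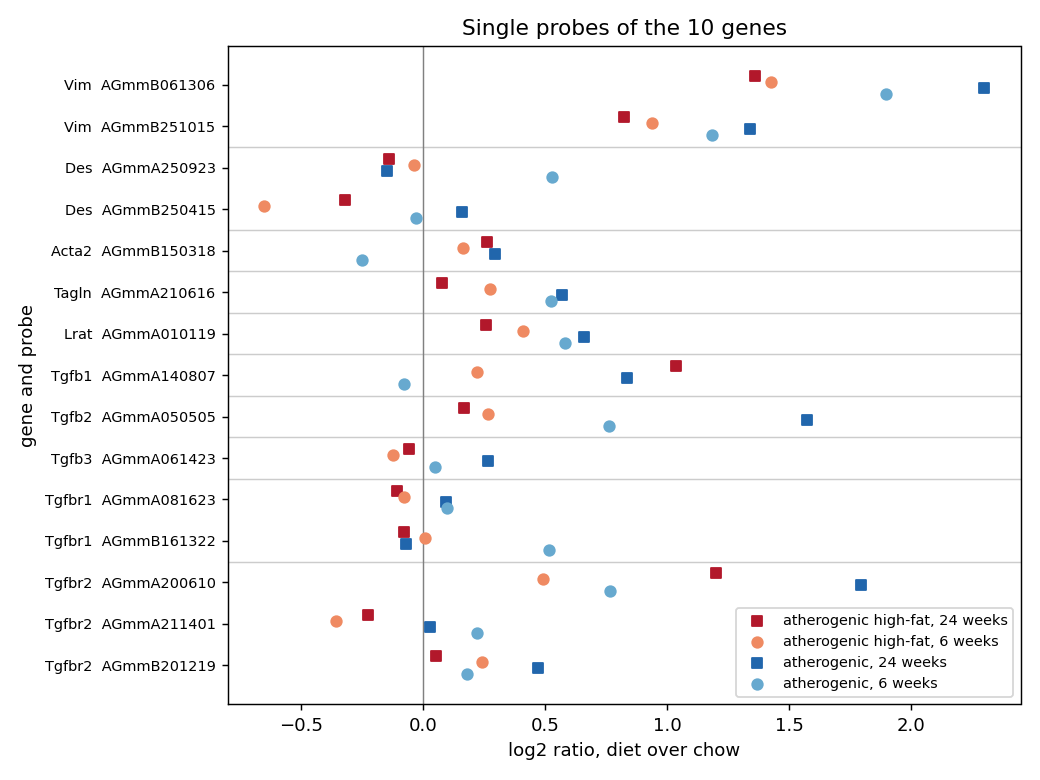
Log2 ratio of diet over chow (horizontal axis) of each of the 15 probes, grouped by gene; squares are 24 weeks and circles 6 weeks, red tones the high-fat diet and blue tones the plain diet. Both Vim probes lie right of 0 on all arrays, while AGmmA200610 of Tgfbr2, averaging 1.065, stands apart from the other 2 probes of that gene.

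The second comparison asked how the added fat altered these ratios, as the mean of high-fat minus plain values within 24 and within 6 weeks. Tgfb2 was lower with high fat, with a difference of -0.95 ± 0.22 (limma SE; adjusted p = 0.0376), with differences of -1.41 within 24 weeks and -0.49 within 6 weeks. So 1 of 10 genes fell and 0 rose, where 7.25% of all genes fell and 3.99% rose. This call ended when the arrays were scaled to a common spread (-0.72, adjusted p = 0.0767) and with robust variance moderation (adjusted p = 0.0532). Vim, at -0.54 ± 0.15, did not pass (adjusted p = 0.0608), and at a common spread its difference was 0.047. Of its probes AGmmB061306 fell when tested alone (-0.70, adjusted p = 0.0346), as did AGmmB250415 of Des (-0.55, adjusted p = 0.0477) and the probe of Tgfb2; 8.50% of all named probes did so.

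In all, 8 of the 10 genes had a difference below 0, with Tgfb1 (0.25 ± 0.14) and Acta2 (0.19 ± 0.16) above it. The median over the 10 was -0.32, against -0.06 over all genes, 42.9% of which lay above 0. Des, Tgfb3 and Tgfbr1 lay below chow on both high-fat arrays and above it on both plain arrays. On the plain 24-week array Des (0.0050) and Tgfbr1 (0.012) stood almost at chow. Of all genes 19.5% showed such an opposition of the diets, in either direction. With array medians set to 0 the share of all calls that were higher with high fat was 23.3%, in place of 35.5%. Hepatocyte markers differed between the diets as well: of 11 measured, 6 were lower with high fat and 0 higher, with list medians of -0.58 and -0.92 on the high-fat arrays (24 and 6 weeks) and 0.39 and 0.07 on those of the plain diet (24 and 6 weeks). Their part in the differences of these genes was not tested.

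The third comparison asked how the ratios at 24 weeks differed from those at 6 weeks, within each diet. At an adjusted p of 0.05 limma called 0.00% of the 13705 genes higher and 0.00% lower, while 1353 had an unadjusted p under 0.05, 1 of them among these 10. That gene was Tgfb1, at 0.86 ± 0.14 (unadjusted p = 0.000359, the 29th smallest of all genes; adjusted p = 0.170). Its difference was 0.81 within the high-fat diet and 0.91 within the plain diet. The 2 diets thus gave near-equal differences for Tgfb1, on a single probe and without passing the adjustment. For Tgfb2 the same difference was -0.10 within high fat and 0.81 within the plain diet, with a mean of 0.36 ± 0.22 (adjusted p = 0.639). Acta2 had 0.10 and 0.54 (mean 0.32 ± 0.16) and Tgfbr2 0.22 and 0.38 (mean 0.30 ± 0.14) in the same order, and neither passed. The Tgfbr2 difference came from AGmmA200610 (0.87), against -0.03 for AGmmA211401 and 0.05 for AGmmB201219, and with the median of probes Tgfbr2 stood at 0.032. Vim, at 0.09 ± 0.15, and Lrat, at -0.03 ± 0.14, had small differences by duration.

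**Figure D3:**
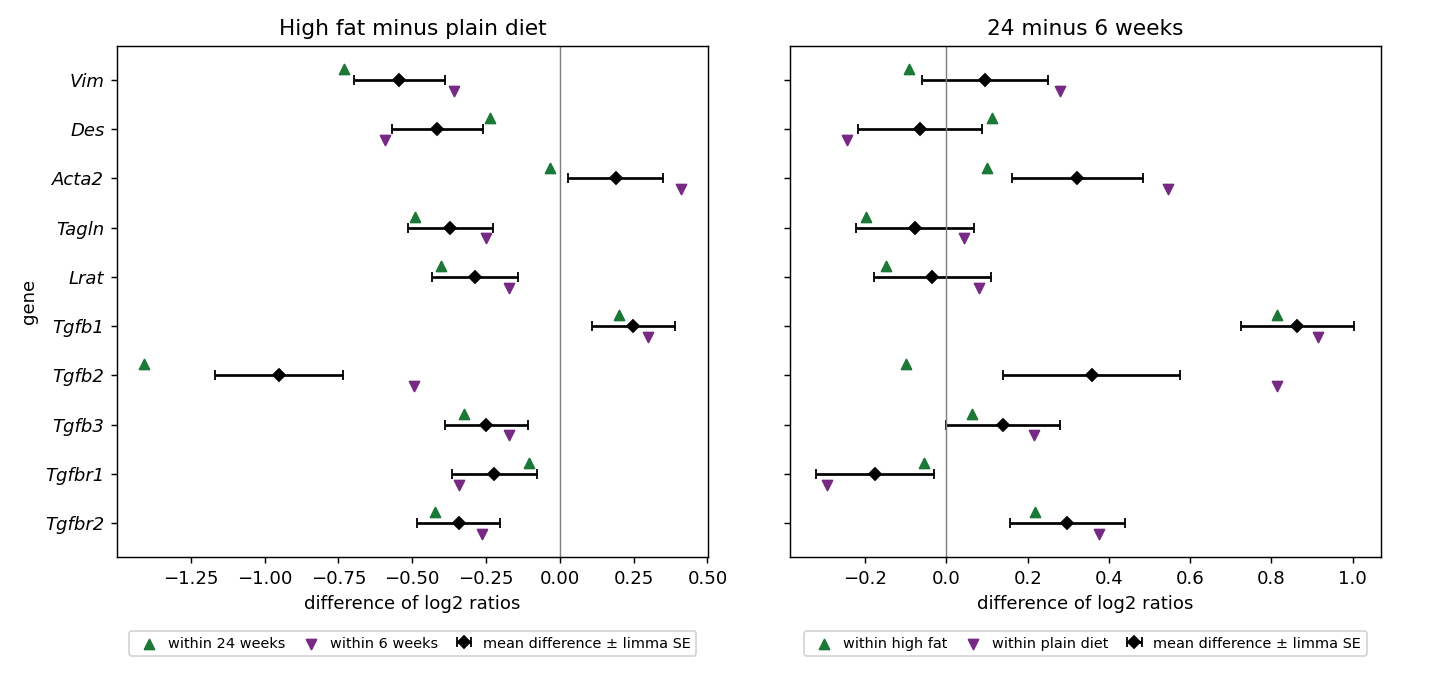
Difference of log2 ratios (horizontal axis) for each of the 10 genes, high fat minus plain diet on the left and 24 minus 6 weeks on the right; triangles are the differences within a duration or a diet, and diamonds their mean with the limma SE. Tgfb2 lies farthest below 0 for high fat, at -0.95, and Tgfb1 farthest above 0 for duration, at 0.86.

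Other genes of the pathway were read from lists. Their counts for diet over chow can be read against the 6.25% of all genes that rose and the 5.72% that fell. Among genes of TGF-beta latency and activation, such as the latent binding proteins and the activating integrins, 0 of 8 measured passed for diet over chow. The largest means were those of Nrros, which tethers latent TGF-beta on macrophages and microglia, at 0.33 ± 0.09 (adjusted p = 0.0530), and Ltbp3 at 0.25 ± 0.09. Of 11 other receptors and co-receptors of the superfamily 1 rose and 1 fell. Bmpr1b, a BMP receptor, fell, with a mean log2 ratio of -1.42 ± 0.13 (adjusted p = 0.00299), with values from -1.88 to -1.17. Bambi, a decoy receptor that dampens TGF-beta signalling, rose by 0.46 ± 0.10 (adjusted p = 0.0371); without the high-fat 24-week, high-fat 6-week or plain 24-week array it stood at 0.45, 0.49 and 0.38 and did not pass.

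Of 15 measured Smads and Smad regulators 2 rose and 0 fell, where 6.25% of all genes rose and 5.72% fell. Fkbp1a, an immunophilin that binds the type I receptor, rose by 0.74 ± 0.12 (adjusted p = 0.0163; 0.70, adjusted p = 0.0923, without the plain 24-week array). Smad1, which transmits BMP signals, averaged 0.45 ± 0.11 at the threshold itself (adjusted p = 0.04996) and lost its call whichever array was left out, with means from 0.36 to 0.55. The Smad1 call also ended with array medians at 0, the median of probes, values on at least 3 arrays and robust moderation (adjusted p from 0.0504 to 0.0618). Of 11 measured TGF-beta target genes 3 rose and 0 fell. Tgfbi, a matrix protein named for its induction by TGF-beta, rose by 0.90 ± 0.11 (adjusted p = 0.00723), with 0.84 and 0.60 on the high-fat arrays (24 and 6 weeks) and 1.16 and 0.98 on those of the plain diet (24 and 6 weeks). The protease inhibitor Timp1 and the matricellular Postn rose by 0.50 ± 0.09 and 0.49 ± 0.10. The call of Timp1 ended without the high-fat 24-week (0.54), high-fat 6-week (0.51) or plain 24-week array (0.43), and that of Postn without the high-fat 24-week (0.52), plain 24-week (0.45) or plain 6-week array (0.45).

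Contractile and smooth muscle genes held 7 of 21 that rose and 0 that fell, where 6.25% of all genes rose and 5.72% fell. Actg2, the enteric smooth muscle actin, rose by 0.99 ± 0.15 (adjusted p = 0.0118), the tropomyosin Tpm1 by 0.92 ± 0.11 (adjusted p = 0.00720), Tagln2, the transgelin of non-muscle cells, by 0.86 ± 0.13 (adjusted p = 0.0122), and the cytoplasmic actin Actg1 by 0.78 ± 0.10 (adjusted p = 0.00761). Without the plain 24-week array Actg2 (0.89) and Actg1 (0.72) did not pass. The list median was 0.10. Smooth muscle genes of the list that did not pass included Myh11 (-0.12), Smtn (-0.33), Cnn1 (0.10) and Myocd (0.23), named after their values were seen.

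Of 17 other stellate cell markers 4 rose and 1 fell, where 6.25% of all genes rose and 5.72% fell. The proteoglycan Dcn rose by 0.88 ± 0.11 (adjusted p = 0.00811), the transcription factor Tcf21 by 0.72 ± 0.17 (adjusted p = 0.0451), the signalling regulator Rgs5 of pericytes by 0.59 ± 0.12 (adjusted p = 0.0280) and the transcription factor Gata4 by 0.53 ± 0.12 (adjusted p = 0.0352). The gene that fell was Pdgfrb, the receptor for platelet-derived growth factor on stellate cells, at -0.40 ± 0.08 (adjusted p = 0.0266). Pdgfrb was named after its values were seen, and its call was not checked without single arrays or under other settings. Calls ended for Tcf21 with array medians at 0 (adjusted p = 0.0540) and without the high-fat 6-week (0.80), plain 24-week (0.51) or plain 6-week array (0.69), for Rgs5 without the high-fat 24-week (0.56) or plain 24-week array (0.48), and for Gata4 without the high-fat 24-week (0.43), high-fat 6-week (0.58) or plain 24-week array (0.50). The list median was 0.08.

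Among partners of intermediate filaments 0 of 8 passed; Prph averaged -0.24 ± 0.12 and the nestin gene Nes -0.22 ± 0.08. Among retinoid handling genes 0 of 16 rose and 1 fell: Dgat1, an acyltransferase that can also esterify retinol, at -1.16 ± 0.08 (adjusted p = 0.00162).

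Markers of other cell types were counted against the same chow livers, and the shares that rose or fell can be read against the 6.25% and 5.72% of all genes. Of 9 measured markers of portal fibroblasts and mesothelium 2 fell and 0 rose, while the list median was 0.17. Thy1 fell, at -2.98 ± 0.29 (adjusted p = 0.00356), and so did Msln, at -0.46 ± 0.11. Msln lost its call whichever array was left out (means from -0.55 to -0.37). Of the macrophage markers, the protease Ctss rose by 2.32 ± 0.17, the lysozyme Lyz1 by 2.22 ± 0.08 and the complement gene C1qb by 1.74 ± 0.17. Lyz2, the other lysozyme gene of the list, was not measured, and whether the Lyz1 probe also binds it was not tested. Vsig4, of resident macrophages, fell, at -1.33 ± 0.28 (adjusted p = 0.0306), a call that ended without the high-fat 6-week (-1.28) or plain 24-week array (-1.48). In the same list Cd5l rose (0.74 ± 0.14, adjusted p = 0.0224), while Clec4f (0.15 ± 0.12) and Marco (0.21 ± 0.39) did not pass. Cd5l, Clec4f and Marco were named after their values were seen. Of 10 lymphocyte markers 1 rose, Nkg7 (0.46 ± 0.11), and of 12 endothelial markers 1 rose, Vwf (0.34 ± 0.08). The call of Nkg7 ended with array medians at 0 (adjusted p = 0.0518) and without the high-fat 24-week (0.44), plain 24-week (0.43) or plain 6-week array (0.40), and that of Vwf whichever array was left out (0.32 to 0.36). Of 8 bile duct cell markers 2 rose, Tspan8 (2.19 ± 0.20) and Krt23 (0.92 ± 0.15), and the call of Krt23 ended without the plain 24-week array (0.91). Of 11 hepatocyte markers 1 rose and 0 fell by the test, while the list median was -0.35, below chow. The gene that rose was Apoh (1.09 ± 0.21), whose call ended without the high-fat 6-week (1.09) or plain 24-week array (1.21). The part of a change in cell makeup in the ratios of the 10 genes was not tested.

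**Figure D4:**
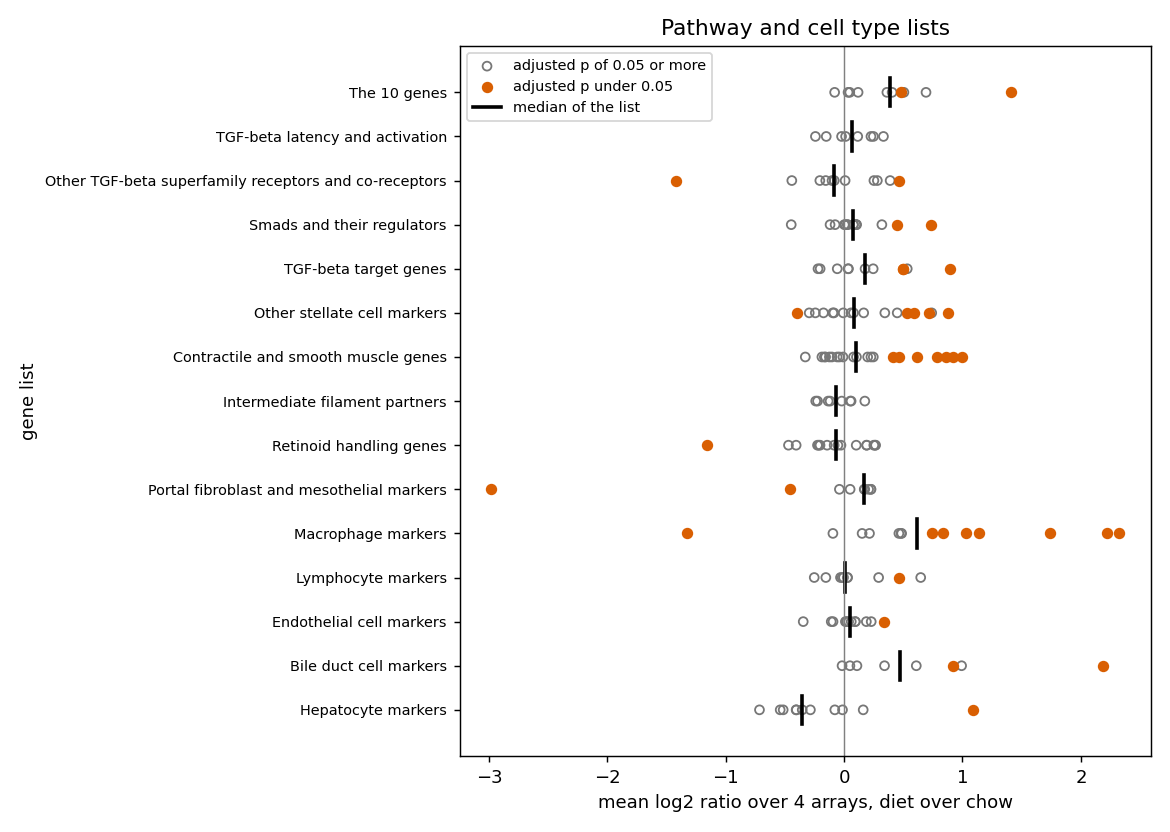
Mean log2 ratio of diet over chow over the 4 arrays (horizontal axis) of every measured gene in each list; filled points passed an adjusted p of 0.05 and bars are list medians. The 10 genes have a median of 0.38. The medians of the macrophage markers (0.61) and the bile duct cell markers (0.48) are higher, and that of the contractile genes (0.10) is lower.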

How the data were processed

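The authors hybridised amplified liver RNA to AceGene Mouse Oligo Chip 30K arrays, scanned them on an Agilent G2505B, read spots with GenePix Pro 4.1 and normalized by LOWESS in GeneSpring 7.2, per the series' design text. How background was corrected and spots filtered is not stated there. The deposited table holds signed log ratios, taken as log10 of Cy5 (diet) over Cy3 (chow); base, direction and centring are not stated, and array medians of the deposited values were 0.006, 0.006, -0.005 and -0.019 (high fat 24 and 6 weeks, plain 24 and 6 weeks). Values were converted to log2. Probes missing on an array were left out (975 of 28845). Of all probes 17637 had 1 symbol, 64 several and 11144 none listed; symbols were updated by gene identifier to RefSeq GRCm38.p6, which lacked 252. The array table names no build; coordinates are those of the RefSeq promoter table alone.

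Genes were tested with limma 3.58.1 in R 4.3.3 across all genes, two-sided, with Benjamini-Hochberg adjustment: the mean of the 4 arrays against 0 (3 residual degrees of freedom), and an additive model of fat and duration (1 residual degree of freedom, moderated over genes). Each condition has 1 array, and whether arrays shared a chow sample is not known. The script was tested on simulated data. Named were all members, up to 4 genes per list by size past the threshold (or 2 as values), and the 3 genes closest to any member that passed with a mean of at least 0.5. The members, lists and tests were chosen with earlier results of these data known.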

Additional observations from a re-analysis of the deposited data

Results flagged for a closer look

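For 4 members the diets stood apart by the test or by the side of chow. Tgfb2 differed by the test of the difference itself: high fat minus plain was -0.95 (adjusted p = 0.0376), a call that ended at a common array spread and with robust moderation. For Des (-0.41), Tgfb3 (-0.25) and Tgfbr1 (-0.22) both high-fat arrays lay below chow and both plain arrays above it. On the plain 24-week array, though, Des (0.0050) and Tgfbr1 (0.012) stood almost at chow, below the median of all genes (0.047). The probes of Des, and those of Tgfbr1, lay on opposite sides of 0 on that array. The difference did not pass for Des, Tgfb3 or Tgfbr1 (adjusted p = 0.111, 0.256 and 0.321), and 19.5% of all genes showed such an opposition.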

How the results depend on the processing

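For diet over chow 2 of the 10 genes passed with array medians at 0, a common spread or the median of probes. The count was also 2 with values on at least 3 arrays, robust moderation or natural logarithms. With each probe tested, 3 of the 10 had a probe that passed, as did 1891 of all 13705 genes. With diet and duration terms, a fit with 1 residual degree of freedom, 6 passed (Vim, Lrat, Tagln, Tgfb1, Tgfb2 and Tgfbr2). That fit called 5219 of all genes, in place of 1640. Without a single array 1 to 2 passed, and 286 to 1179 of all genes did. The 286 came without the plain 24-week array, and 759 and 784 without the high-fat 24- and 6-week arrays. For high fat minus plain the count of 1 became 0 at a common spread and with robust moderation. With each probe tested, 3 of the 10 had a probe that passed, as did 2195 of all 13705 genes. Vim reversed to 0.047 at a common spread, the cause of which was not tested. For 24 minus 6 weeks, 1 gene had a probe that passed when each probe was tested, and no member did. Without single arrays the uncalled means of Des ranged from -0.19 to 0.0078, of Tgfb3 from -0.044 to 0.085 and of Tgfbr1 from -0.038 to 0.094, each changing sign. No paired analysis was possible because each condition has 1 array, so no replicate numbers match animals; the differences by fat and by duration were taken within duration and within diet. Leaving out an array could not be tested for fat or duration, since no residual degrees of freedom were left. Signal over background is unknown, so no limit by depth is given.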

Other observations

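Genes of the pathway, stellate cell and retinoid lists that passed for high fat minus plain were named after their values were seen. Their calls were not checked under other settings. Of 8 latency genes 1 was higher and 0 lower, of 11 receptors 1 and 1, of 15 Smads and regulators 0 and 1. Of 11 target genes 0 were higher and 1 lower, of 17 stellate cell markers 2 and 1, of 16 retinoid genes 2 and 2. Of all genes 3.99% were higher and 7.25% lower. Among receptors and Smads, Acvrl1, an endothelial type I receptor, was lower, with a difference of -0.92 (adjusted p = 0.0204) and so was Smad9 at -0.92 (adjusted p = 0.0192), while the co-receptor Tgfbr3 was higher by 0.54 (adjusted p = 0.0486). The TGF-beta target Ccn2, a matricellular protein, was lower, at -0.75 (adjusted p = 0.0314), with 0.43 and -0.11 on the high-fat arrays (24 and 6 weeks) and 0.98 and 0.84 on the plain arrays (24 and 6 weeks). Among stellate cell markers the collectin Colec11 was lower, at -0.96 (adjusted p = 0.0187), and the transcription factor Hand2 and the collagen Col14a1 were higher by 0.57 and 0.59. The retinol carriers Rbp4 and Ttr, made in hepatocytes, were lower with high fat, at -1.68 and -1.81, and Aldh1a1, a retinaldehyde dehydrogenase, was higher by 0.93, as was the retinoid-responsive chemerin gene Rarres2 by 0.65 (adjusted p = 0.0380). Furin, a protease that cleaves the TGF-beta precursor, was higher by 0.72.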
